A study of Mus musculus with 24 samples.

Results

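The genes described here encode the proteasome: the subunits of its catalytic core and regulatory cap, its activators and inhibitor, and the chaperones that assemble it, measured as RNA in mouse oocytes. Members were the genes of the count table whose symbol begins with Psma to Psmg followed by a digit (55 genes), less 5 pseudogenes with -ps in their names. That left 50 of the 55401 genes listed. Of these, 47 passed the filter on low counts and were tested, while Psma8, Psmb8 and Psmb9 did not. The name pattern also took in Psmc3ip, a partner of the meiotic recombinases that is no part of the proteasome. It stays in the counts and medians over members, but is left out of the 31 constitutive subunits of core and cap.

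The study asked how low-dose microplastics, called PSMPs in the labels, act on oocyte maturation and histone deacetylases. Libraries were made from 5 pooled oocytes each, in 6 groups. Untreated oocytes are con, oocytes of exposed animals in vivo PSMPs, unexposed oocytes kept in culture con-in vitro, and oocytes that met the particles in culture in vitro PSMPs. The remaining groups were oocytes treated with SAHA, an inhibitor of histone deacetylases also known as vorinostat, and exposed oocytes that overexpressed Hdac3 (PSMPs & OE-Hdac3). All groups were mouse oocytes, and strain, age, oocyte stage, dose and duration are not given in the sources used here. The sources used here name no control for SAHA and no exposure route for the overexpressing oocytes, and both possible reference groups were therefore used.

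Each group had 2 deposited columns, from 6.22 M to 35.6 M counts. For in vivo PSMPs, both columns agreed within sampling noise (0.444 for chi-square per degree of freedom, where replicates elsewhere gave 16.5 to 384) and entered as 1 library (n = 1), leaving 11 libraries. Whether replicates are separate animals is not stated, and p-values thus reflect only how these libraries vary. Oocyte markers were detected in every library, 15 of 15 except in con-in vitro 2 (14 of 15), with summed levels of 10899 to 43699 CPM (counts scaled to library size, with TMM factors). Hdac3 stood at 336 and 228 CPM in PSMPs & OE-Hdac3 and at 7.17 to 37.4 CPM elsewhere. Fewer genes had a count in con and con-in vitro (11640 to 12843) than in the other groups (17722 to 20957). The top 100 genes held 52.2% and 53.3% of con-in vitro counts, compared with 19% to 36.1% in other libraries, and the part of either measure in the results below was not tested. Library con 1 stood apart from con 2: it held no count for 12 of the 50 members, against 6 in con 2. The median log2 change over members is therefore also given without con 1 and without con 2 in each comparison that rests on con. In pooled oocytes, a lower level can come from fewer contributing cells or from less RNA per cell, and these cannot be told apart.

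The proteasome degrades proteins tagged with ubiquitin. Its 20S core is a barrel of alpha rings, which gate the entrance, around beta rings that hold the proteolytic sites, and its 19S cap recognises ubiquitin, unfolds the substrate with a ring of ATPases and threads it into the core. In oocytes, timed destruction of cyclin B and securin by this machine lets meiosis proceed, and much of the RNA that supports it is stored during growth. Proteasome genes share transcription factors in many cells, among them NRF1, encoded by Nfe2l1, which binds antioxidant response elements.

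Promoters of 4 members are shown because the results below turn on these genes: Psma2 and Psmd2, the called members with the largest differences between cultured controls and exposed oocytes, Psmd11, the called member with counts in both control groups that differed most between them, and Psmb6, the catalytic subunit of the constitutive core that was called. Each run is the 250 bases before the RefSeq gene start in GRCm38.p6 on the plus strand, 5′ to 3′, at chr13:14612992-14613241 for Psma2, chr16:20651402-20651651 for Psmd2, chr11:80428365-80428614 for Psmd11 and chr11:70525107-70525356 for Psmb6. Capitals mark CCAAT, the motif bound by NF-Y, GGGCGG, the GC box bound by SP1, and TGACNNNGC, the core of an antioxidant response element. Both strands were searched, so that CCGCCC is a GC box on the minus strand.
Psma2: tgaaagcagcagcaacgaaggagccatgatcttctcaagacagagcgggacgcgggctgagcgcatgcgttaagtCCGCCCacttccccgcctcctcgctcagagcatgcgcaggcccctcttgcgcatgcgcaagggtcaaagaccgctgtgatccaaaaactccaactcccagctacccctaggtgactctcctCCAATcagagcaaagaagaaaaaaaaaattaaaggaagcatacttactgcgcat
Psmd2: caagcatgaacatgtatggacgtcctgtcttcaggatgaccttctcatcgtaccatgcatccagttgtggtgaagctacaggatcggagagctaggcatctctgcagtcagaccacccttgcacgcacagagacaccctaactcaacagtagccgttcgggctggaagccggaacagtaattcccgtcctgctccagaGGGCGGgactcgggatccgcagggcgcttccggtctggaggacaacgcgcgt
Psmd11: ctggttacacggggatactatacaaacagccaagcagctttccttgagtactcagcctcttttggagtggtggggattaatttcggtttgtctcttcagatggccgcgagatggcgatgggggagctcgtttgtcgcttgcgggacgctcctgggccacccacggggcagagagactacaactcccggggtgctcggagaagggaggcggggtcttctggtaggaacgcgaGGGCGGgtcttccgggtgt
Psmb6: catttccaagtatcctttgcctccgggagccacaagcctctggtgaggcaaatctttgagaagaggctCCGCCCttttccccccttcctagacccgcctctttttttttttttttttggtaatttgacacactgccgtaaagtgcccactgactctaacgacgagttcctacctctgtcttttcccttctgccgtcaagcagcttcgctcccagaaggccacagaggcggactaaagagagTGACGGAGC
Promoter windows were found for 42 of the 50 members, 45 windows in all because some genes have several. TGACNNNGC was in 5 of the 45 (11.1%), those of Psmb5, Psmb6, Psmc6, Psmd9 and Psmd12, against 10.2% of the 32851 windows of the same length from all genes. CCAAT was in 15 (33.3%, against 33.8%) and GGGCGG in 23 (51.1%, against 32.7%). Of these 3 motifs, the GC box had the largest gap between members and all promoters, and a match describes letters only.

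**Figure D1:**
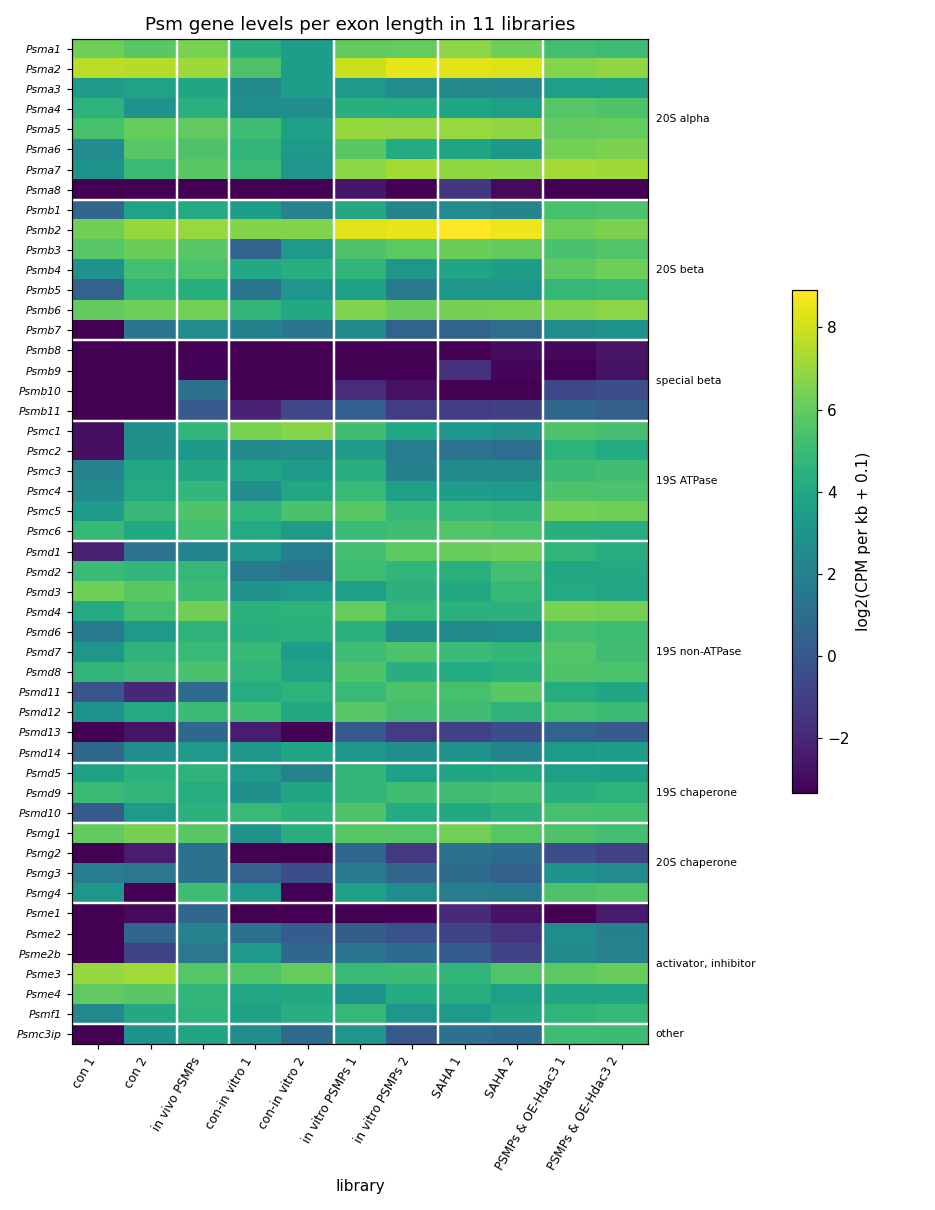
Level of each of the 50 members (rows, grouped by role) in each of the 11 libraries (columns), as log2 of CPM per kilobase of exon plus 0.1, with white lines between groups and roles. Dark cells in the con columns show members with few or no counts there, and the bright cells of Psma2 and Psmb2 are the highest levels.

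Levels of different genes were compared per kilobase of the gene's summed exon length. That length can differ from the length of the transcripts present, and its part in the spread between genes was not tested. Over the 31 constitutive subunits of core and cap (7 alpha, 7 beta, 6 ATPase and 11 non-ATPase genes), the median level was 7.53 and 24.6 CPM per kb in con, 30.0 in in vivo PSMPs and 17.9 and 11 in con-in vitro. It was 34.5 and 23.0 CPM per kb in in vitro PSMPs, 18.5 and 23.3 in SAHA, and 40.5 and 35.6 in PSMPs & OE-Hdac3. The cultured controls and con 1 were the low libraries, and both PSMPs & OE-Hdac3 libraries were above all others. These subunits assemble in fixed proportion, yet their RNA was uneven: the upper quartile was 19.7 times the lower in con 1, 5.31 times in con 2 and 2.93 times in in vivo PSMPs. The ratio was 4.06 and 2.01 in con-in vitro, 2.97 and 7.80 in in vitro PSMPs, 7.14 and 8.86 in SAHA and 2.76 and 3.66 in PSMPs & OE-Hdac3. The most abundant subunit per kilobase was Psma2 in con and in vivo PSMPs, Psmb2 in SAHA, in in vitro PSMPs and in 1 con-in vitro library, Psmc1 in the other con-in vitro library, and Psma7 in PSMPs & OE-Hdac3.

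**Figure D2:**
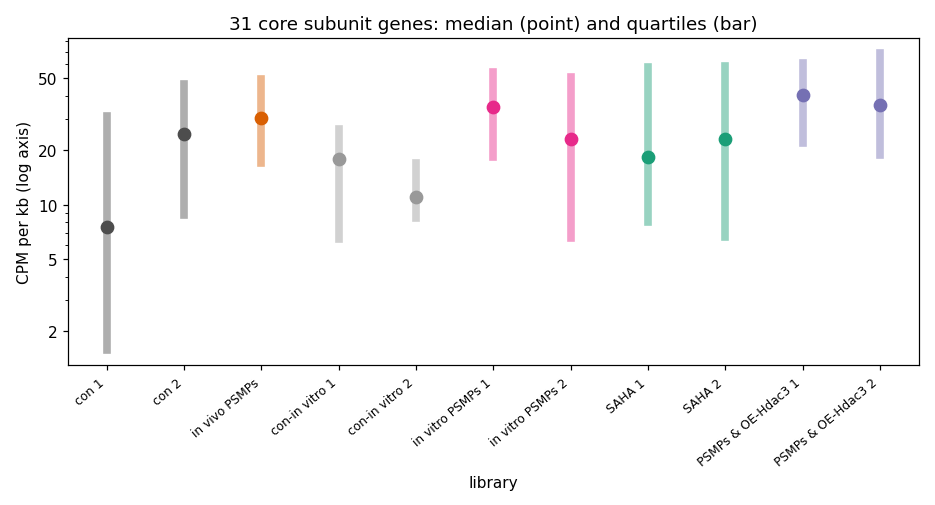
Median (point) and quartiles (bar) of the level of the 31 constitutive core and cap subunits in each library, in CPM per kb on a log axis. The con 1 median of 7.53 lies lowest, and the PSMPs & OE-Hdac3 medians of 40.5 and 35.6 lie highest.

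Of the 47 tested members, 23 had their highest group mean in PSMPs & OE-Hdac3 (19.3% of all tested genes did) and 1 had its lowest there (7.99%). The lowest mean fell in con-in vitro for 17 members (25.4% of all genes), in con for 14 (35.7%) and in SAHA for 13 (12.8%). SAHA also held the highest mean of 8 members (21.0% of all genes). These counts describe group means and carry no test.

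Replicates differed unevenly among the members, which sets how far any comparison can be read. Among members with a mean of at least 1 CPM, 24 of 41 differed by over 2-fold between the con libraries (54.6% of all such genes), 21 of them higher in con 2. Between the con-in vitro libraries 18 of 43 did (51.3%). Between the in vitro PSMPs libraries 21 of 45 did, against 23.6% of all genes, and 20 of the 21 were higher in replicate 1 while Psme4 alone was higher in replicate 2. No member differed by over 2-fold within SAHA (0 of 43, against 12.1% of genes) or PSMPs & OE-Hdac3 (0 of 45, against 6.80%). The in vitro PSMPs difference had a direction: the median log2 ratio of replicate 1 to replicate 2 was 0.75 over members and -0.17 over all genes. In con, the same median was -1.13 over members and -0.09 over all genes.

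**Figure D3:**
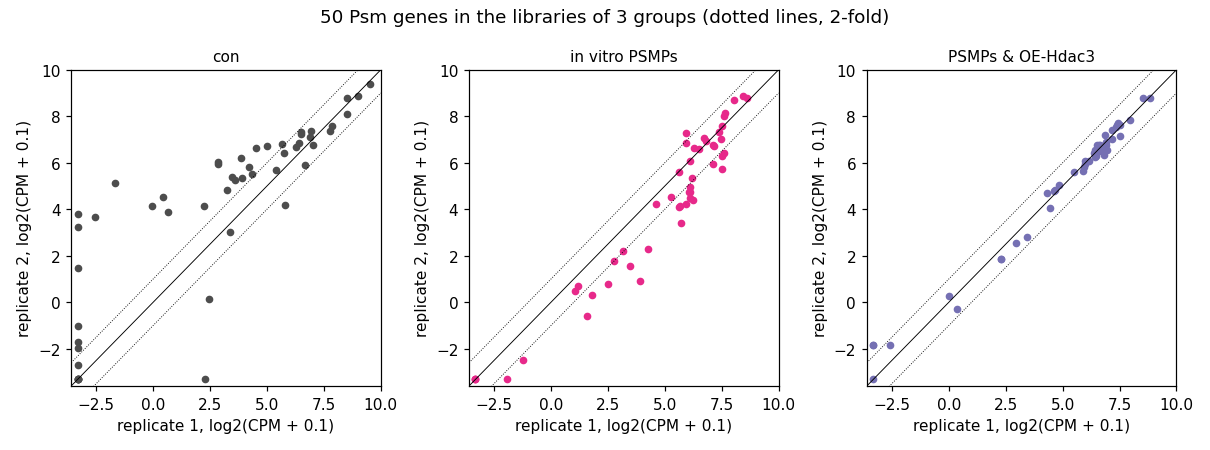
Levels of the 50 members in replicate 1 (horizontal) and replicate 2 (vertical) of con, in vitro PSMPs and PSMPs & OE-Hdac3, as log2(CPM + 0.1), with the diagonal and 2-fold lines. Points in con scatter above the diagonal, those of in vitro PSMPs lie mostly below it, and those of PSMPs & OE-Hdac3 with a mean of at least 1 CPM stay within 2-fold.

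The catalytic subunits of the constitutive core came at unequal levels. Psmb6, which carries the caspase-like site (chr11:70525367-70527858, plus strand, mm10), stood at 117 and 137 CPM in con, 145 in in vivo PSMPs, 49 and 31.7 in con-in vitro, 175 and 129 in in vitro PSMPs, 155 and 163 in SAHA and 173 and 209 in PSMPs & OE-Hdac3. Both con-in vitro libraries were below all 9 others. Psmb5, which carries the chymotrypsin-like site and is the target of bortezomib, stood at 1.25 and 23.1 CPM in con, 18.4 in in vivo PSMPs, 2.37 and 7.65 in con-in vitro, 10.9 and 2.83 in in vitro PSMPs, 7.75 and 7.51 in SAHA and 25 and 28.2 in PSMPs & OE-Hdac3. Its con libraries spanned most of the range, and the con-in vitro, in vitro PSMPs and SAHA values overlapped. Psmb7, which carries the trypsin-like site, stood at 0 and 9.3 CPM in con, 20.1 in in vivo PSMPs, 13.9 and 9.29 in con-in vitro, 19.1 and 4.77 in in vitro PSMPs, 4.75 and 6.71 in SAHA and 19.9 and 26.2 in PSMPs & OE-Hdac3. It was listed at 0 in con 1 only, and part of its exon sequence overlaps Nek6 on the opposite strand. With all libraries, Psmb5 and Psmb7 passed the test in none of the 8 comparisons, and their fitted log2 changes ranged from -1.28 to 1.96 and from -2.07 to 2.11. Without con 2, so that con 1 was the only uncultured control, the fitted log2 change of Psmb5 for in vivo PSMPs against con was 3.87. That of Psmb7 for SAHA against con was then 9.43, against 0 counts in con 1. With 1 con library, these sizes are not read as results about the 2 genes.

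The immunoproteasome replaces these sites with Psmb8, Psmb9 and Psmb10 in immune cells and under interferon. Psmb8 had 0 counts in 9 of the 12 columns and 1 or 2 counts in the others. Psmb9 had 14 counts in SAHA 1 and 0 to 2 elsewhere, and neither gene was tested. Psmb10 stood at 0 and 0 CPM in con, 3.82 in in vivo PSMPs, 0 and 0 in con-in vitro, 0.324 and 0.0808 in in vitro PSMPs, 0 and 0 in SAHA and 0.911 and 1.09 in PSMPs & OE-Hdac3. Its in vivo PSMPs level was the highest, and both controls of each kind were at 0. Psmb11, the thymus-specific beta subunit, had low levels too, 0 and 0 CPM in con, 4.98 in in vivo PSMPs, 0.593 and 2.46 in con-in vitro, 5.59 and 1.62 in in vitro PSMPs, 1.64 and 1.88 in SAHA and 7.55 and 5.73 in PSMPs & OE-Hdac3. It was absent from the counts of con alone, which allows up to 0.104 CPM in con 1 and 0.0773 in con 2 (3 counts, counting error only). Psma8, the alpha subunit of the spermatocyte proteasome, had no more than 13 counts in any library and 0 in 9 columns.

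The cultured and the uncultured controls are compared first, since the other comparisons rest on one or the other. In con-in vitro, subunits of both the core and the cap were lower than in con: Psmd2 and Psmb3 by more than 3 log2 units, and Psma1, Psma2, Psmd3 and the core chaperone gene Psmg1 by more than 2. Cap genes Psmd11 and Psmc1 were higher, by 5.41 and 4.87 log2 units. By the edgeR quasi-likelihood test with Benjamini-Hochberg adjustment over 16736 genes, 3 of 47 members were called higher and 10 lower at an adjusted p of 0.05, or 27.7%, against 25.1% of all genes tested (14.7% higher and 10.5% lower). The share called in either direction was therefore near that of all genes, so the number of calls shows nothing particular to the members. By direction, 10 of 47 were lower beside 10.5% of all genes, and 3 of 47 higher beside 14.7%, a difference that was not tested. The median log2 change over members was -0.07 against 0 over all genes.

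Psmd2, a scaffold of the 19S base that docks ubiquitin receptors (chr16:20651652-20663414, plus strand), stood at 131 and 109 CPM in con, 114 in in vivo PSMPs, 11.9 and 9.84 in con-in vitro, 139 and 108 in in vitro PSMPs, 85.8 and 154 in SAHA and 63.2 and 66.7 in PSMPs & OE-Hdac3. The con-in vitro pair lay far under con and under every other group, with no overlap (log2 fold change -3.47 ± 0.43, edgeR adjusted p = 0.000861). Psmb3, a structural beta subunit, stood at 122 and 165 CPM in con, 121 in in vivo PSMPs, 3.26 and 22.7 in con-in vitro, 105 and 132 in in vitro PSMPs, 162 and 144 in SAHA and 97.3 and 108 in PSMPs & OE-Hdac3. Again only the cultured controls were low (log2 fold change -3.46 ± 0.73, edgeR adjusted p = 0.0105). Psma2, an alpha-ring subunit (chr13:14613240-14674236, plus strand), stood at 743 and 661 CPM in con, 501 in in vivo PSMPs, 166 and 41.5 in con-in vitro, 886 and 1293 in in vitro PSMPs, 1204 and 1094 in SAHA and 364 and 436 in PSMPs & OE-Hdac3. Its cultured controls were lowest, in vivo PSMPs and PSMPs & OE-Hdac3 lay under con, and in vitro PSMPs and SAHA lay above it (log2 fold change -2.76 ± 0.57, edgeR adjusted p = 0.00954 for con-in vitro against con).

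Psmd3, a scaffold subunit of the cap's lid, stood at 361 and 269.9 CPM in con, 164 in in vivo PSMPs, 37.7 and 50.0 in con-in vitro, 60.6 and 114 in in vitro PSMPs, 84.8 and 145 in SAHA and 88.8 and 78.2 in PSMPs & OE-Hdac3. Both con libraries were above all 9 others (log2 fold change -2.85 ± 0.46, edgeR adjusted p = 0.0031). Psmg1, a partner in the chaperone pair on which the alpha ring is built, stood at 84.4 and 114 CPM in con, 71.9 in in vivo PSMPs, 10.1 and 27.3 in con-in vitro, 69.1 and 67.9 in in vitro PSMPs, 107 and 69.8 in SAHA and 59.4 and 50.5 in PSMPs & OE-Hdac3. Its con-in vitro values were the lowest of all groups (log2 fold change -2.40 ± 0.53, edgeR adjusted p = 0.0131). The other members called lower were Psma1, Psmb6, Psmd9, and the activators Psme3 and Psme4, with log2 changes from -2.05 to -1.27.

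Psmd11, the lid subunit known to promote 26S assembly in embryonic stem cells (chr11:80428615-80473248, plus strand), stood at 5.39 and 1.00 CPM in con, 11.5 in in vivo PSMPs, 121 and 150.3 in con-in vitro, 202 and 285 in in vitro PSMPs, 258 and 352 in SAHA and 122 and 94.3 in PSMPs & OE-Hdac3. All con and in vivo PSMPs values were at or below 11.5 CPM and all other values at or above 94.3 (log2 fold change 5.41 ± 0.76, edgeR adjusted p = 0.00166). Psmc1, an ATPase of the unfolding ring, stood at 0.0695 and 12.4 CPM in con, 50.9 in in vivo PSMPs, 167 and 199 in con-in vitro, 69.5 and 30.9 in in vitro PSMPs, 17.5 and 14 in SAHA and 85.4 and 75.5 in PSMPs & OE-Hdac3. The con-in vitro pair was highest and the 2 con libraries differed widely (log2 fold change 4.87 ± 1.52, edgeR adjusted p = 0.045). This call passed under 6 of 12 alternatives. Psmb11 was the third, at least 35.3-fold higher than the 3 counts over the group that 0 in con allows (edgeR adjusted p = 0.0134). Without con 2, so that con 1 was the only uncultured control, the median log2 change over members was 0.81. Without con 1 it was -0.67, and the median over all genes was 0 in either fit. Without con-in vitro 1 it was -0.69 and without con-in vitro 2 it was -0.07, again with 0 over all genes. A fit of the control groups alone called 4 members, beside 7.5% of all genes. Scaling by library totals called 2 higher and 14 lower, beside 29.3% of all genes.

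**Figure D4:**
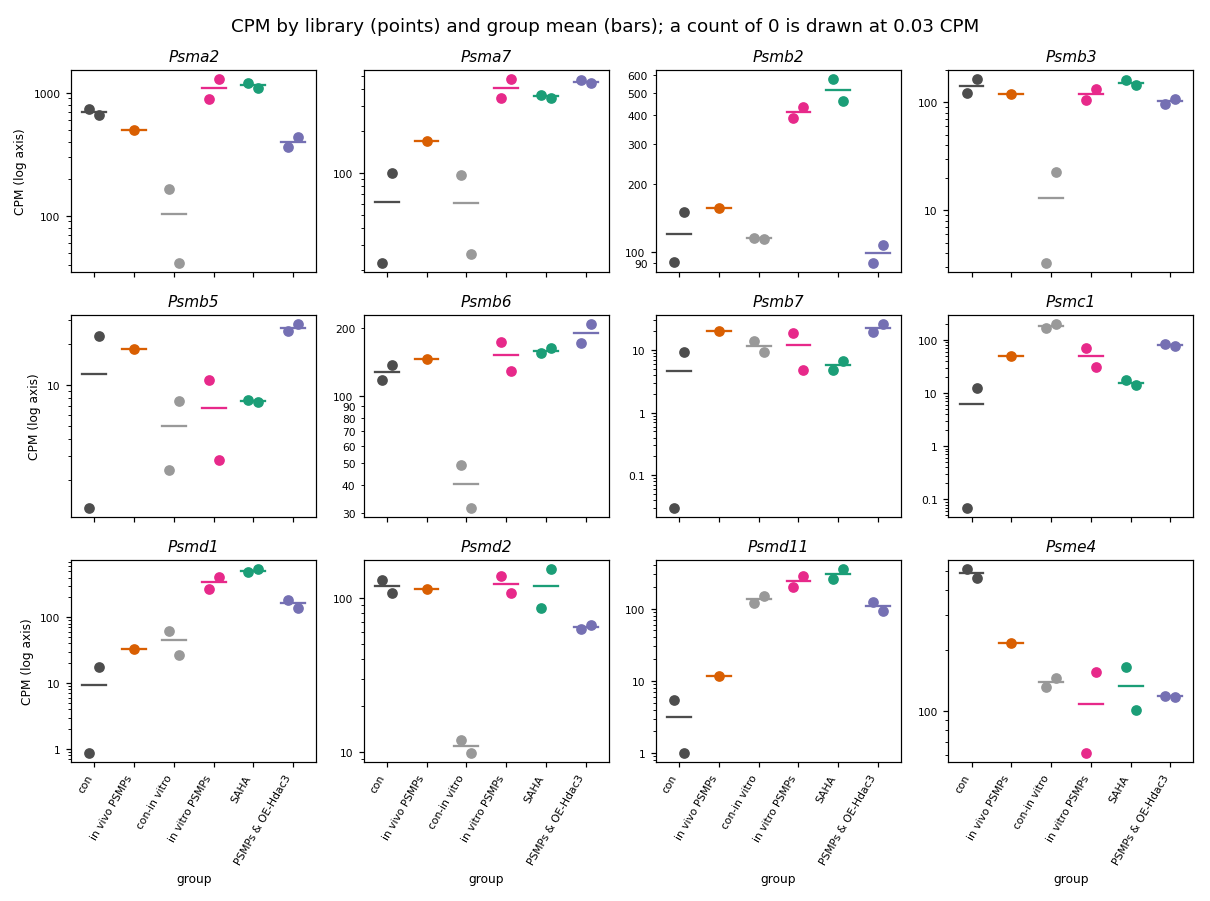
CPM by library (points) and group mean (bars) on log axes for 12 members, with a count of 0 drawn at 0.03 CPM. Con-in vitro is low for Psma2, Psmb3, Psmb6 and Psmd2, con is low for Psmd1 and Psmd11, and in vitro PSMPs and SAHA are high for Psmb2.

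In oocytes exposed to PSMPs in culture, 10 members were higher than in con-in vitro and none lower. They were 4 of 7 tested alpha-ring genes (Psma1, Psma2, Psma5, Psma7), 3 of 7 constitutive beta genes (Psmb2, Psmb3, Psmb6), 1 of 11 non-ATPase cap genes (Psmd2), and the chaperone genes Psmd9 and Psmg1. None of the 6 ATPase genes and none of the 6 activator and inhibitor genes was called. The members' share was 21.3%, against 15.4% of all genes in either direction (8.57% higher and 6.78% lower). The median log2 change was 0.97 over members and 0.71 over all genes. Libraries scaled by their totals moved the median of all genes to 1.70 and that of members to 1.96, so changes are read relative to those medians.

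Psmd2, whose values are given above, showed the largest difference among them (log2 fold change 3.51 ± 0.44, edgeR adjusted p = 0.000981). The in vitro PSMPs values of 139 and 108 CPM overlapped those of con, 131 and 109, and the con-in vitro values lay far below. Psma2 followed (log2 fold change 3.39 ± 0.59, edgeR adjusted p = 0.00559), and here both exposed libraries were also above con. Psmb3 rose from the low cultured controls to values that overlapped con (log2 fold change 3.19 ± 0.72, edgeR adjusted p = 0.0194).

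Psma7, an alpha-ring subunit, stood at 22.6 and 100.2 CPM in con, 169.8 in in vivo PSMPs, 95.5 and 26 in con-in vitro, 345 and 472 in in vitro PSMPs, 362 and 346 in SAHA and 462 and 443 in PSMPs & OE-Hdac3. The libraries of PSMPs & OE-Hdac3, SAHA and in vitro PSMPs were all above both controls and in vivo PSMPs (log2 fold change 2.75 ± 0.75, edgeR adjusted p = 0.0402). Psma5, its neighbour in the ring, stood at 54 and 84.8 CPM in con, 79.2 in in vivo PSMPs, 46 and 16.1 in con-in vitro, 168 and 161 in in vitro PSMPs, 171 and 155 in SAHA and 82.4 and 85.8 in PSMPs & OE-Hdac3. The in vitro PSMPs and SAHA pairs were the highest (log2 fold change 2.41 ± 0.51, edgeR adjusted p = 0.0146), and the pseudogene Psma5-ps, with 22 to 219 counts per column, may share reads with it. Psmb2, a structural beta subunit (chr4:126677630-126709714, plus strand), stood at 91.1 and 149.9 CPM in con, 157 in in vivo PSMPs, 116 and 114 in con-in vitro, 388 and 436 in in vitro PSMPs, 577 and 459 in SAHA and 90.2 and 108 in PSMPs & OE-Hdac3. The in vitro PSMPs and SAHA values were at 388 CPM or above and the 7 others at or below 157 (log2 fold change 1.84 ± 0.34, edgeR adjusted p = 0.00771). Psma1, Psmb6, Psmd9 and Psmg1 had log2 changes of 2.02, 1.91, 1.53 and 1.87. With library totals 18 members were called, beside 25.3% of all genes. The median log2 change over members was 0.22 without in vitro PSMPs 1 and 1.19 without in vitro PSMPs 2. Over all genes it was 0.56 and 0.67. Without con-in vitro 1 it was 1.26 over members and 1.49 over all genes, and without con-in vitro 2 it was 0.79 and 1.29. Of these fits, only that without in vitro PSMPs 2 had a median over members above that of all genes. Psma2, Psmb2 and Psmd2 passed under all 12 alternatives that gave a value.

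Treatment with SAHA was set against both controls. Against con-in vitro, 12 members were higher and none lower. They were 4 alpha-ring genes (Psma1, Psma2, Psma5, Psma7), 3 constitutive beta genes (Psmb2, Psmb3, Psmb6), the ATPase gene Psmc6, the cap genes Psmd1 and Psmd2, and the chaperone genes Psmd9 and Psmg1. That is 25.5% of members, against 19.8% of all genes in either direction (11.7% higher and 8.14% lower). Both comparisons share the con-in vitro libraries, so that a low value there enters both. The median over members was 0.20 (0.09 with genes at 0 in a group set at their bounds), below the 0.66 of all genes: other members, such as Psmc1 and Psmd6, had fitted values under 0 without passing the test.

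Among called members, the largest SAHA differences from con-in vitro were those of Psmb3 at 3.55 ± 0.74 (edgeR adjusted p = 0.0113), of Psmd1 at 3.52 ± 1.07 (edgeR adjusted p = 0.0487), and of Psma2 at 3.47 ± 0.59 (edgeR adjusted p = 0.00434). Psmd2 differed by 3.47 ± 0.44 (edgeR adjusted p = 0.000869), and Psma1 by 2.57 ± 0.41 (edgeR adjusted p = 0.00297). Psma1 stood at 218 and 163 CPM in con, 255 in in vivo PSMPs, 59.6 and 32.5 in con-in vitro, 184 and 189 in in vitro PSMPs, 329 and 217 in SAHA and 107 and 102 in PSMPs & OE-Hdac3. Con-in vitro was lowest and SAHA 1 highest, with no overlap between those groups. The median log2 change over members was 0.10 without SAHA 1 and 0.27 without SAHA 2, against 0.55 and 0.45 over all genes. Without con-in vitro 1 it was 0.81 (1.51 over all genes), and without con-in vitro 2 it was 0.26 (1.32 over all genes). Psmd1 had the highest adjusted p of the 12 and passed under 6 of 12 alternatives.

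Against con, SAHA had 5 members higher and 3 lower, 17.0% against 27% of all genes tested (20.2% higher and 6.75% lower). Psmd11 stood at 258 and 352 CPM in SAHA and 5.39 and 1.00 in con, with no overlap (log2 fold change 6.58 ± 0.80, edgeR adjusted p = 0.00319). Psmd1, the large scaffold subunit of the 19S base, stood at 0.869 and 17.7 CPM in con, 33 in in vivo PSMPs, 61.7 and 27 in con-in vitro, 265 and 415 in in vitro PSMPs, 482 and 536 in SAHA and 186 and 140.1 in PSMPs & OE-Hdac3. Its con values were lowest and its SAHA values highest of all groups (log2 fold change 5.77 ± 1.19, edgeR adjusted p = 0.0132). Psma7 and Psmb2 were also higher, by 2.53 ± 0.74 (edgeR adjusted p = 0.0354) and 2.10 ± 0.35 (edgeR adjusted p = 0.0072). The Psma7 call passed under 6 of 12 alternatives. Psmb11 was at least 39.6-fold higher than 3 counts over the con group.

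The 3 that were lower than con under SAHA were Psmd3 and 2 activators. Psme3, or PA28 gamma, a nuclear activator of ubiquitin-independent degradation, stood at 369 and 437 CPM in con, 151 in in vivo PSMPs, 145 and 189.6 in con-in vitro, 90.1 and 96.9 in in vitro PSMPs, 79.2 and 142 in SAHA and 168 and 195 in PSMPs & OE-Hdac3. Con was above every other library (log2 fold change -1.86 ± 0.37, edgeR adjusted p = 0.0118). Psme4, or PA200, an activator linked to acetylated histones, stood at 509 and 463 CPM in con, 218 in in vivo PSMPs, 131 and 145 in con-in vitro, 61.4 and 155 in in vitro PSMPs, 166 and 101 in SAHA and 118 and 118 in PSMPs & OE-Hdac3. Here, too, con was above all 9 other libraries (log2 fold change -1.86 ± 0.46, edgeR adjusted p = 0.0202). Psmd3 differed by -1.46 ± 0.43 (edgeR adjusted p = 0.0369). The median log2 change over members was 0.18 without SAHA 1 and 0.03 without SAHA 2, against 0.48 and 0.43 over all genes. Without con 1 it was -0.06 (0.97 over all genes), and without con 2 it was 0.85 (1.16 over all genes). A fit of SAHA and con alone called 2 members, beside 10.2% of all genes.

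**Figure D5:**
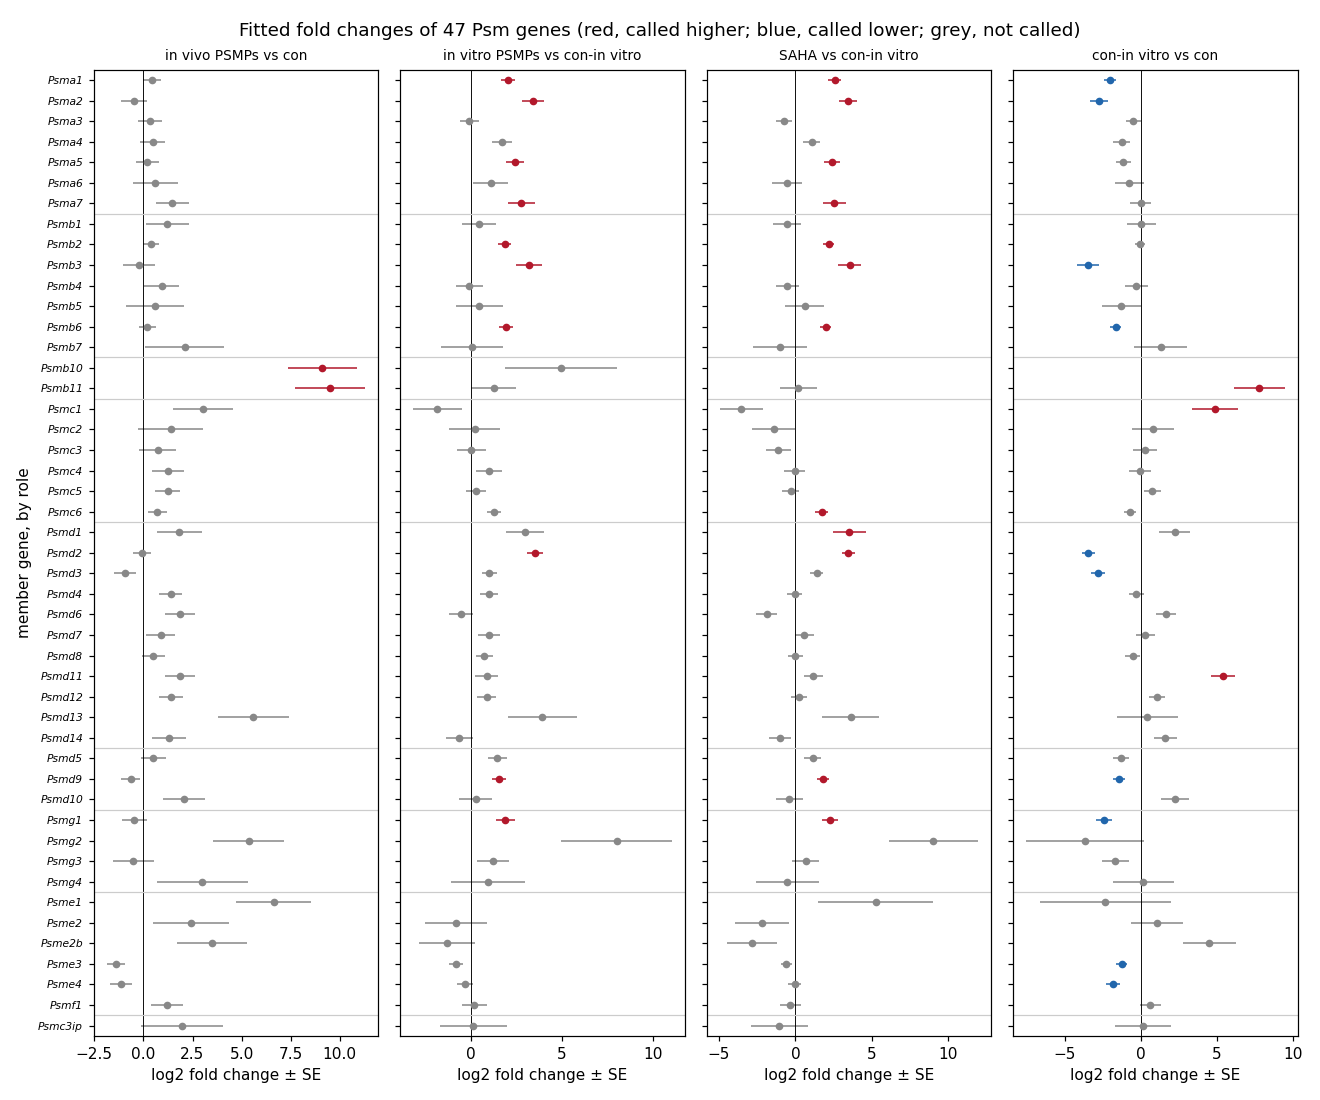
Fitted log2 fold change (point) with standard error (bar) of the 47 tested members, by role, in 4 comparisons, with called members in red (higher) or blue (lower) and those at 0 in both groups left out. Members called higher in the middle panels are alpha-ring and beta-ring genes, Psmc6, Psmd1, Psmd2 and chaperones, and the size of a change against a group at 0, as for Psmb10, depends on the fit's prior count.

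Exposure in the animal was compared with con on 1 library against 2. Psmb10 and Psmb11 were called higher, 2 of 47 members or 4.26%, against 4.88% of all genes (4.59% higher and 0.287% lower), and none was lower. At 3.82 CPM against 0, Psmb10 was at least 86.0-fold above 3 counts over the con group (edgeR adjusted p = 0.0467). Psmb11 was at least 112-fold above it (edgeR adjusted p = 0.0463). DESeq2 called 3 higher and 1 lower, beside 16.4% of all genes. Without an adjustment, 10 members had p under 0.05, and the share of all genes under that p was not computed. Neither the Psmb10 nor the Psmb11 call was made with either in vivo PSMPs column used singly, in fits that called fewer genes of any kind than the main fit. The same held in a fit of those groups alone, where 0% of all genes were called. The median log2 change over members was 0.65 without con 1 and 2.11 without con 2, against 0.31 and 0.56 over all genes.

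Markers of other cell types were detected more often in that library than in con. Of 20 markers of cumulus and granulosa cells, 16 were detected in in vivo PSMPs and 5 in each con library, with summed levels of 174 CPM against 47.5 and 70.8. Detection was not particular to this library: 14 and 10 were detected in in vitro PSMPs, 14 and 14 in SAHA and 16 and 13 in PSMPs & OE-Hdac3. The sums there were 45.4 to 86.4 CPM. In con-in vitro 7 and 5 were detected, with sums of 110 and 35.8 CPM. Inha stood at 59.4 CPM against 0 in con, while Lhcgr, Has2, Ptx3 and Tnfaip6 were at 0. Kitl, at 0.0516 CPM, lay under both con libraries (0.208 and 9.12), and Cyp19a1, at 20.4, lay between them (29.4 and 17.6). Of 10 leukocyte markers, 5 were detected against 1 in each con library, with sums of 13.8 CPM against 21.6 and 11.7. H2-Aa held 12.5 CPM of that 13.8, and Cd74, Lyz2, Cd3e, C1qa and Csf1r were at 0. In SAHA 1 and in vitro PSMPs 2, 5 of these markers were detected as well. The part of these cells in the Psmb10 and Psmb11 levels was not tested. The in vivo PSMPs value lay above both con libraries for 34 of 47 members (45.6% of all genes) and below both for 8 (22.6%). The median log2 change over members was 1.20 against 0.25 over all genes, and 1 of the 2 con libraries was the low con 1.

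The effects of PSMPs in culture and in the animal were tested against each other in the same model. Psma2 and Psmd2 rose more in culture, by 3.88 ± 0.93 (edgeR adjusted p = 0.0303) and 3.58 ± 0.67 (edgeR adjusted p = 0.0122) log2 units. Psmb11 had the opposite sign, with a fitted difference of -8.27 ± 2.04 (edgeR adjusted p = 0.0385) that depends on the 0 counts in con. That made 2 members higher and 1 lower, 6.38% against 11.3% of all genes (4.87% higher and 6.4% lower). For Psma2, the animal values were 501 CPM after exposure and 743 and 661 in con, so the difference combines a fitted fall of -0.49 that did not pass with the rise from low cultured controls. A fit of these 4 groups alone called 0 members, beside 1.52% of all genes. It had 11 members at an unadjusted p under 0.05, for which no share of all genes was computed. DESeq2 called 9, beside 26.6%, and library totals called 7 higher and 1 lower, beside 12.8%. The median difference over members was 0.11 without con 1 and -1.10 without con 2, against -0.05 and -0.28 over all genes. It was -0.83 without in vitro PSMPs 1 and 0.01 without in vitro PSMPs 2, against 0.05 and 0.08 over all genes. Without con-in vitro 1 it was 0.39 (0.67 over all genes), and without con-in vitro 2 it was -0.18 (0.63 over all genes).

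Oocytes with PSMPs and Hdac3 overexpression had lower Psmb2 than oocytes exposed in culture: 90.2 and 108 CPM against 388 and 436 (log2 fold change -2.06 ± 0.35, edgeR adjusted p = 0.0158). It was the sole member called, 2.13% against 4.83% of all genes (1.85% higher and 2.98% lower), and its level was close to that of con and con-in vitro, 91.1 and 149.9 and 116 and 114 CPM. Before adjustment, 6 members had p under 0.05, and no share of all genes was computed at that threshold. Members whose libraries did not overlap were higher in 24 cases (38% of all genes) and lower in 11 (34%). The Psmb2 call was lost without any 1 of the 4 libraries, in fits that left 1 library in a group and called few genes of any kind. Its log2 change stayed between -2.30 and -1.55 under all 12 alternatives. A fit of the 2 groups alone called 8 members higher and 7 lower, beside 39.3% of all genes.

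Other members had their highest levels in PSMPs & OE-Hdac3, of which Psmb1, Psma6 and Psmc3ip were chosen after their values were seen. Psmb1, a structural beta subunit, stood at 7.02 and 61.9 CPM in con, 80.1 in in vivo PSMPs, 51.3 and 19.4 in con-in vitro, 75.4 and 20.9 in in vitro PSMPs, 27 and 21.3 in SAHA and 186 and 198 in PSMPs & OE-Hdac3. Its PSMPs & OE-Hdac3 values were the highest of all libraries, and the difference from in vitro PSMPs did not pass (log2 fold change 1.99 ± 0.96, edgeR adjusted p = 0.298). Psma6, an alpha-ring subunit, stood at 7.16 and 66.3 CPM in con, 55.7 in in vivo PSMPs, 31.8 and 11.5 in con-in vitro, 68.3 and 22.5 in in vitro PSMPs, 18.3 and 11.2 in SAHA and 100.01 and 109.6 in PSMPs & OE-Hdac3. The PSMPs & OE-Hdac3 pair was again above the rest without passing (log2 fold change 1.21 ± 0.96, edgeR adjusted p = 0.546). Psmc3ip, the recombinase partner, stood at 0 and 13.8 CPM in con, 27 in in vivo PSMPs, 12.2 and 3.28 in con-in vitro, 15 and 1.78 in in vitro PSMPs, 4.13 and 3.3 in SAHA and 62.6 and 60.7 in PSMPs & OE-Hdac3. It too was highest in PSMPs & OE-Hdac3 without passing (log2 fold change 2.88 ± 1.93, edgeR adjusted p = 0.465), and part of its exon sequence is shared with Mlx on the opposite strand.

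Against in vivo PSMPs, no member was called in PSMPs & OE-Hdac3 by edgeR, and 0% of all genes were. DESeq2 called 1 higher, beside 6% of all genes. Before adjustment, 3 members had p under 0.05 by edgeR, with no share of all genes computed at that threshold. Medians were 0.26 over members and 0.23 over all genes. With the 2 in vivo PSMPs columns as separate libraries 1 was called higher and 1 lower, beside 8.1% of all genes. A fit of those groups alone called 14 higher and 10 lower, beside 46.5% of all genes.

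Genes that work with the proteasome were followed as a list of 33 symbols without members, of which 31 were in the table and tested. Against con-in vitro, in vitro PSMPs had 3 of the 31 higher and 6 lower, or 29.0% called against 15.4% of all genes, and SAHA 4 higher and 7 lower (35.5% against 19.8%). SAHA against con had 4 higher and 7 lower (35.5% against 27%), con-in vitro against con 3 higher and 4 lower (22.6% against 25.1%), and PSMPs & OE-Hdac3 against in vitro PSMPs 1 higher (3.23% against 4.83%). In vivo PSMPs against con had 0 by edgeR, against 4.88% of all genes. At an unadjusted p under 0.05 it had 3, with no share of all genes computed. Nfe2l1, which encodes the transcription factor that raises proteasome genes when degradation is blocked, stood at 105 and 89.9 CPM in con, 53.6 in in vivo PSMPs, 85.5 and 93.7 in con-in vitro, 13.4 and 17.5 in in vitro PSMPs, 12.5 and 13.2 in SAHA and 87.7 and 88 in PSMPs & OE-Hdac3. The in vitro PSMPs and SAHA values were the lowest, and PSMPs & OE-Hdac3 lay within the range of con and con-in vitro.

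For Nfe2l1 the difference was -2.54 ± 0.39 (edgeR adjusted p = 0.00299) between in vitro PSMPs and con-in vitro, and 2.51 ± 0.39 (edgeR adjusted p = 0.0141) between PSMPs & OE-Hdac3 and in vitro PSMPs. Ddi2, the protease that releases this factor from the endoplasmic reticulum, stood at 345 and 361 CPM in con, 329 in in vivo PSMPs, 469 and 473 in con-in vitro, 56.2 and 81.7 in in vitro PSMPs, 63.9 and 83 in SAHA and 144 and 122 in PSMPs & OE-Hdac3. Its in vitro PSMPs and SAHA values were under all others (log2 fold change -2.77 ± 0.34, edgeR adjusted p = 0.000865 for in vitro PSMPs). Midn, or midnolin, which carries nuclear proteins to the proteasome without ubiquitin, stood at 21.5 and 19 CPM in con, 30.3 in in vivo PSMPs, 599 and 382 in con-in vitro, 11.7 and 25.1 in in vitro PSMPs, 21.7 and 15.4 in SAHA and 38.5 and 40.01 in PSMPs & OE-Hdac3. It was high in con-in vitro alone (log2 fold change -4.74 ± 0.51, edgeR adjusted p = 0.000519). Sem1, a small 19S lid subunit whose symbol the name pattern does not match, stood at 32.4 and 56.1 CPM in con, 88.5 in in vivo PSMPs, 21.7 and 12 in con-in vitro, 96.4 and 117 in in vitro PSMPs, 107 and 87.1 in SAHA and 130.3 and 144 in PSMPs & OE-Hdac3. It was low in con-in vitro, as Psmd2 was, and higher in in vitro PSMPs (log2 fold change 2.66 ± 0.46, edgeR adjusted p = 0.00531).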

How the data were processed

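RNA was counted per gene in 12 columns of mouse oocytes, 5 per library. The counts are whole numbers deposited by the authors, with gene coordinates and exon lengths per the file headers. Per the submitters' processing notes, build mm10 was used with Bowtie2 2.2.5, deepTools 3.5.1, DESeq2, fastp 0.12.4, featureCounts, HISAT2, Picard and SAMtools. The role and order of each, and the strand setting of the counting, are not given in the sources used here, so a gene and its antisense partner cannot be told apart: 14 members share exon bases with another gene, 11 of them on the opposite strand. The near-identical Psme2 and Psme2b, and Psma5 with its pseudogene, are uncertain. Chromatin libraries of the series were not analysed here.

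The members, roles and lists were chosen with earlier results of these data known. In R 4.3.3, genes were kept by edgeR 4.0.16 (minimum count 10), leaving 16736. The 2 in vivo PSMPs columns were merged as their rounded mean. Counts were scaled by TMM to CPM, and 1 model with a coefficient per group (11 libraries, 5 residual degrees of freedom) was tested by edgeR's quasi-likelihood F test, two-sided, with Benjamini-Hochberg adjustment over all genes and a threshold of 0.05. The lone in vivo PSMPs library was given the spread of the others. The standard error is the absolute log2 fold change over the root of F. Genes at 0 in a whole group were bounded by 3 counts over the group. Text values were given for the catalytic subunits and, per comparison, up to 5 called members per direction of largest change whose libraries did not overlap and whose higher group averaged 10 CPM or more. Other members named, and the genes named from the list of related genes, were chosen after their values were seen. Alternatives were a minimum count of 50, no filter, DESeq2 (1.42.0) size factors, library totals, DESeq2's Wald test, in vivo columns as 2 libraries, a replicate block, a fit to the groups compared, and leaving out each library. The procedure was tested on simulated data. Promoters are RefSeq's, matched by symbol.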

Additional observations from a re-analysis of the deposited data

Results flagged for a closer look

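The effect of PSMPs differed between culture and the animal for 3 of 47 tested members by the test of the difference itself. That is 6.38%, below the 11.3% of all genes. The log2 effect in culture minus that in the animal was 3.88 ± 0.93 (SE, edgeR adjusted p = 0.0303) for Psma2 and 3.58 ± 0.67 (edgeR adjusted p = 0.0122) for Psmd2. For Psmb11 it was -8.27 ± 2.04 (edgeR adjusted p = 0.0385), a fitted value that depends on the 0 counts in con. The animal arm rests on 1 exposed library, and a fit of these 4 groups alone called 0 members. Con-in vitro lay below con for both genes that rose: 166 and 41.5 CPM against 743 and 661 for Psma2, and 11.9 and 9.84 against 131 and 109 for Psmd2.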

How the results depend on the processing

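Each count here is of members called, with the share of all genes called in the same fit given as a percentage beside it. For in vivo PSMPs against con (2), it was 6 with the in vivo columns as 2 libraries, 4 with DESeq2, 0 with only the groups compared, and 0 to 22 when a library was left out. In vitro PSMPs against con-in vitro (10, 15.4%) gave 18 (25.3%) with library totals. SAHA against con-in vitro (12) gave 5 to 11 without a library, and SAHA against con (8) gave 2 in the fit to those groups and 1 to 18 without a library. PSMPs & OE-Hdac3 against in vitro PSMPs (1, 4.83%) gave 15 (39.3%) in the fit to those groups. Against in vivo PSMPs (0, 0%), it gave 2 (8.1%) with 2 libraries, 1 (6%) with DESeq2 and 24 (46.5%) in the fit to those groups. Con-in vitro against con (13, 25.1%) gave 4 (7.5%) in the fit to those groups. The difference between PSMPs effects (3, 11.3%) gave 8 (12.8%) with library totals, 11 (24%) with 2 libraries and 9 (26.6%) with DESeq2. It gave 0 (1.52%) in the fit to those groups. Leaving out a library moved both the counts and the shares in most comparisons, in fits that left 1 library in the group concerned. The causes were not tested, except that fits to fewer groups or libraries have fewer samples behind the spread.

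The replicate numbers gave no sign of pairing: the labels tie them to no animal or batch, and replicate differences of the groups correlated between -0.204 and 0.036 across genes, which are not independent. The replicate block moved the count for in vivo PSMPs against con to 0, beside 0.0239% of all genes, and left every other count within 1.5 times its main value.

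Among single members' fold changes, no called member changed direction. The uncalled Psmb5 and Psmb7 did in 16 cases. Psmb7, in vitro PSMPs against con-in vitro, was -0.00204 with DESeq2's size factors, -0.00219 with its Wald test and -1.28 to 0.73 without a library. Psmb5 in the difference between PSMPs effects was 0.68 with library totals, 0.23 in the fit to those groups and -3.28 to 0.93 without a library. Leaving out a library gave Psmb5 values of -0.32 to 3.87 for in vivo PSMPs, -1.60 to 2.41 for SAHA and -2.37 to 1.80 for con-in vitro against con, and of -0.82 to 1.53 for in vitro PSMPs. It gave Psmb7 values of -0.69 to 9.43 for SAHA against con and of -0.0494 to 0.38 for PSMPs & OE-Hdac3 against in vivo PSMPs. The 3.87 of Psmb5 and the 9.43 of Psmb7 came without con 2 and rested on con 1 alone, where Psmb7 had 0 counts. Calls of single members were lost 69 times when a library was left out and 35 times under other alternatives, each member counted once per comparison and alternative. Library con-in vitro 1 had 6.22 M counts, which TMM scaled to an effective 3.37 M. There, 3 counts correspond to 0.890 CPM, the upper limit that a count of 0 allows.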

Other observations

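Deubiquitinases that dock on the cap were not alike. Usp14, which trims ubiquitin chains at the proteasome, stood at 0.0695 and 31.8 CPM in con, 29.9 in in vivo PSMPs, 24.3 and 14.5 in con-in vitro, 112 and 220.4 in in vitro PSMPs, 263 and 183 in SAHA and 23.9 and 27.5 in PSMPs & OE-Hdac3. In vitro PSMPs and SAHA were above all other libraries, and the con libraries differed widely. Uchl5, the other docked deubiquitinase, stood at 11 and 31 CPM in con, 7.01 in in vivo PSMPs, 41.8 and 25.1 in con-in vitro, 32.8 and 23.8 in in vitro PSMPs, 23.7 and 22 in SAHA and 13.4 and 15.7 in PSMPs & OE-Hdac3. In vivo PSMPs was the lowest library for Uchl5, and the con libraries spanned the SAHA and PSMPs & OE-Hdac3 values. Pomp, the maturation factor of the core, stood at 31.5 and 64.6 CPM in con, 63.7 in in vivo PSMPs, 20.5 and 28.1 in con-in vitro, 71.1 and 50.6 in in vitro PSMPs, 50.6 and 48.7 in SAHA and 53.1 and 48.9 in PSMPs & OE-Hdac3, and its values in con-in vitro were the lowest. Psmg2, the partner of Psmg1, stood at 0 and 0.155 CPM in con, 3.61 in in vivo PSMPs, 0 and 0 in con-in vitro, 2.92 and 0.565 in in vitro PSMPs, 3.96 and 3.24 in SAHA and 1.17 and 0.728 in PSMPs & OE-Hdac3. It was listed at 0 in both con-in vitro libraries and was highest in SAHA 1 and in vivo PSMPs. These genes were chosen after their values were seen.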
